A study of Mus musculus with 11 samples.

Results

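The genes described here encode the ligands of the ERBB receptor tyrosine kinases, the epidermal growth factor (EGF) family and the neuregulins. Members were chosen by gene symbol, as the array annotation gives it, from a list of 10 genes (Egf, Tgfa, Areg, Ereg, Btc, Hbegf, Epgn, Nrg1, Nrg2 and Nrg4). Of these, 9 had features in the table of the DMBA-treated tumours and 8 in the table of the untreated tumours, among 19087 and 16887 named genes. Areg, which encodes amphiregulin, had no listed feature in either table and was not analysed here, and Nrg2 was measured in the DMBA-treated tumours only. The members took up 34 of 45220 array features in the first table and 11 of 22575 in the other.

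The samples analysed were 11 mammary tumours of MMTV-Neu+/- mice, which carry Neu, the rat form of Erbb2, under the long terminal repeat of the mouse mammary tumour virus, a promoter active mainly in mammary epithelium. RNA of 5 tumours came from mice treated with dimethylbenzanthracene (DMBA), a polycyclic hydrocarbon carcinogen, and RNA of 6 came from untreated mice. Both groups carry the transgene, no normal gland was measured, and the labels give no age. Separate mice are not stated as the source of the tumours, so the p-values reflect spread among these RNA samples, part of which may be technical. Each tumour was hybridised on a 2-colour array against a common RNA of whole mouse, and the values are log2 ratios of tumour over that reference. The array platform differed between the groups.

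ERBB ligands are made as membrane-anchored precursors that metalloproteinases cut free, and the released EGF-like domain binds a receptor on the same or a neighbouring cell. Egf, Tgfa, Areg and Epgn encode ligands of EGFR, and the products of Hbegf, Btc and Ereg bind EGFR and ERBB4. Those of Nrg1 and Nrg2 bind ERBB3 and ERBB4, and that of Nrg4 binds ERBB4. ERBB2 has no known ligand of its own and signals in pairs with these ligand-bound receptors. In the mammary gland the family takes part in ductal growth and in the alveolar development of pregnancy.

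Whole mouse RNA holds kidney, salivary gland, skin and brain, in which several of these ligands are made, so each ratio sets the tumour's level of a ligand beside that of all organs mixed. The dye of the tumour channel is not stated in the labels. Median log2 ratios of liver genes lay between -3.51 and -2.95 on the DMBA arrays and between -4.29 and -3.88 on the untreated arrays, so tumour over reference is the likely direction and all signs below rest on it. Correlations between arrays of a group lay between 0.79 and 0.86 (DMBA) and between 0.89 and 0.94 (untreated). Luminal epithelial markers, such as keratins and tight junction genes, checked the labelled tissue. Their list was above the reference, with 9 of 10 genes higher in each group and medians of 2.62 and 2.17, while basal and myoepithelial markers were below it (9 of 10 lower in each group, medians of -2.37 and -2.30). Hormone-sensing luminal genes were mostly lower (2 of 8 higher and 6 lower, then 1 of 8 higher and 6 lower). The higher ones were Esr1 (2.98 ± 0.51) and Pgr (0.6 ± 0.54) in DMBA-treated tumours and Esr1 (0.29 ± 0.16) in untreated tumours. Fibroblast genes were lower in 8 of 9 and 9 of 9 cases. Beside these lists, 26.1% of all genes were higher and 31.7% lower in DMBA-treated tumours, then 28.8% and 32.1% in untreated tumours. In bulk tumour RNA, fewer cells of a type and less RNA per cell cannot be told apart.

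Egf and Tgfa were the ligand genes above the whole mouse reference, and Hbegf and Nrg4 were below it, in both groups of tumours. Ereg and Btc lay nearer to 0, and Nrg2 gave no stable value. Epgn was called lower in the untreated tumours only, and Nrg1 in the DMBA-treated tumours only. A gene was called where the limma test of its mean log2 ratio against 0 gave an adjusted p under 0.05, with adjustment over all genes of the table. In DMBA-treated tumours 5 of 9 members were called, 2 higher and 3 lower, beside 57.8% of all genes called in that table (26.1% higher and 31.7% lower). In untreated tumours 6 of 8 were called, 3 higher and 3 lower, beside 60.9% of all genes (28.8% higher and 32.1% lower). These shares are near the background and are no result about the family. The median of the members was 0.12 (DMBA) and 0.08 (untreated), and that of all genes was -0.02 and 0.0. Tested against a 1.5-fold ratio, 4 members were called in DMBA-treated tumours (Egf, Tgfa, Hbegf and Nrg4, beside 26.6% of all genes) and 1, Egf, in untreated tumours (beside 24.0%). Between 1 member and the next, the ranges over tumours overlapped at every step of the order in each group. In the untreated tumours no neighbours in that order differed beyond their spread. In the DMBA-treated tumours the step after Tgfa was to Nrg2, whose range from -4.56 to 5.25 took in every other member. Nrg2 aside, the lowest Egf and Tgfa values, 1.70 and 1.48, lay above the highest value of any other member, 1.14 for Ereg. Egf was above Tgfa in 4 of 5 DMBA-treated and in 5 of 6 untreated tumours.

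**Figure D1:**
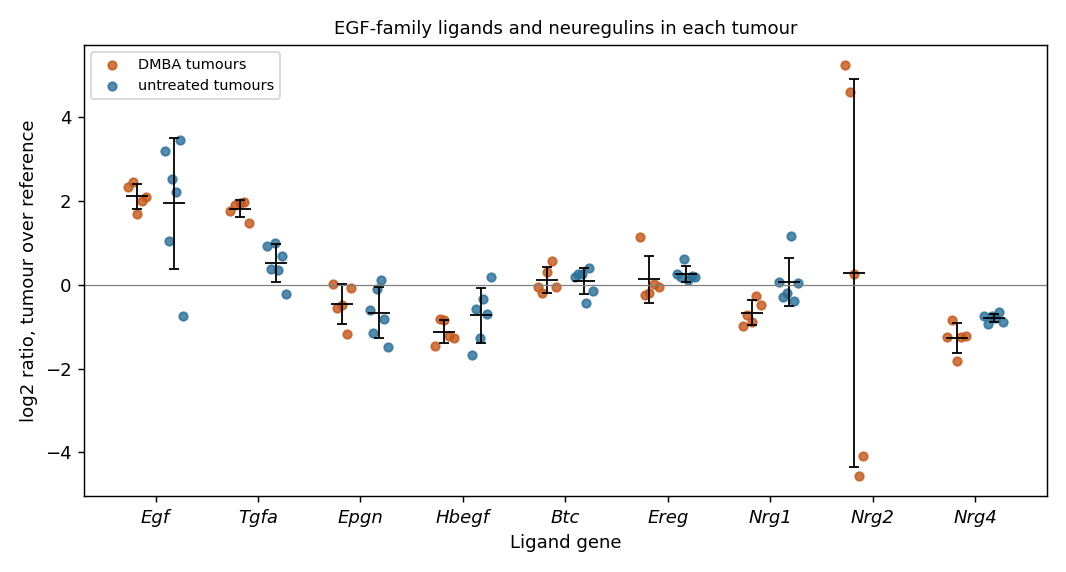
Log2 ratio of tumour over whole mouse reference (vertical axis) for each measured ligand gene (horizontal axis), 1 point for each of 5 DMBA-treated (orange) and 6 untreated (blue) tumours, with the group mean and SD in black. Egf lies above 0 in all tumours but untreated 6, Nrg4 lies below 0 in all 11, and Nrg2 runs from -4.56 to 5.25.

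Egf, the founding ligand of the family and in adult mice a product chiefly of kidney and submandibular gland, had the highest mean of the measured members in each group. In DMBA 1 to 5 its log2 ratio was 2.33, 2.47, 1.70, 2.0 and 2.11. All 5 tumours were above the reference by similar amounts. The mean was 2.12 ± 0.30 (SD, n = 5), or 4.35-fold (limma adjusted p = 1.71e-05), above that of 98.1% of all genes in the table. It is the average of 10 features annotated to the same transcript, whose own means ran from 1.95 to 2.41. Among genes called higher by at least 2-fold, 8.28% of all genes in that table, Egf stood with Tgfa as the only members.

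The single Egf feature of the untreated table read 3.19, 1.05, 2.53, 2.21, 3.46 and -0.74 in untreated 1 to 6. Tumours 1 and 5 were the highest, and tumour 6 alone lay below the reference. The mean was 1.95 ± 1.57 (SD, n = 6, 3.86-fold, limma adjusted p = 0.00676), above 98.2% of genes. It was the only member called higher by at least 2-fold in this table, as were 6.8% of all genes, and it stayed called with any tumour left out (means of 1.65 to 2.49, adjusted p from 0.00019 to 0.0249). Its spread between these tumours was wider than that of 99.8% of genes in the table, whereas in the DMBA-treated tumours the spread of Egf was wider than that of 46.1%. The number of features behind the value differs, 10 against 1. Taken singly, the 10 Egf features of the DMBA-treated tumours had SDs from 0.24 to 0.42. The number of features was not tested as a source of this contrast.

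Other genes of the organs that make Egf in the mouse were mostly below the reference. Kidney tubule genes had a median log2 ratio of -1.18 on the DMBA side (1 of 10 higher, 7 lower) and -0.81 on the untreated side (2 of 9 higher, 5 lower). Over all genes the shares were 26.1% higher and 31.7% lower, then 28.8% and 32.1%. Aqp2, a water channel of the collecting duct, was higher in both groups, at 0.82 ± 0.25 (n = 5) and 0.92 ± 0.99 (n = 6). Salivary gland genes had medians of -3.36 (1 of 9 higher, 8 lower) and -2.09 (1 of 8 higher, 6 lower), and the higher gene in each group was Aqp5, another water channel. On the untreated arrays the salivary median was highest in tumours 6 and 2, at -0.98 and -1.31, and lay between -2.53 and -1.77 in the others. These are the tumours with the lowest Egf values, and whether the salivary genes have a part in the Egf result was not tested.

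Tgfa encodes transforming growth factor alpha, an EGFR ligand that transformed epithelial cells often make for themselves. Its gene means were 1.76, 1.90, 1.95, 1.99 and 1.48 in DMBA 1 to 5. Every tumour was above the reference, and the spread was narrow. The mean of 1.82 ± 0.21 (n = 5) is 3.52-fold (limma adjusted p = 1.48e-05), above 97.3% of genes. For untreated 1 to 6 the gene means were 0.94, 0.37, 1.0, 0.36, 0.70 and -0.23, a mean of 0.52 ± 0.46 (n = 6, 1.44-fold, adjusted p = 0.0177). Tumour 6 was again the lowest and the only tumour below 0. This call did not hold without untreated 1, 3 or 5, where the adjusted p was 0.0581, 0.0532 and 0.0531.

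Features of Tgfa did not read alike. The transcript NM_031199 has 11 features in the DMBA table, and 10 of them had means of at least 1.53, whereas 1 read 1.08 ± 0.25 and was the lowest of the 11 in 4 of 5 tumours. In the untreated table the feature of that transcript read 1.65, 0.84, 1.43, 0.50, 1.25 and -0.65, with a mean of 0.84 ± 0.84 (adjusted p = 0.0264 over features). A second feature, annotated to the complementary DNA BC031432, read 0.21 ± 0.21 (adjusted p = 0.104). The gene mean of the untreated tumours is the average of these features, so it lies below what the shared transcript gives.

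Sequence upstream of the start, from RefSeq (build GRCm38.p6), is shown for 3 of the 4 genes called the same way in both groups, to set the promoters of the high ligands beside that of a low one. Bases outside the annotated span of the gene are shown on the coding strand, 5′ to 3′. For Tgfa and Nrg4 these are only the 66 and 221 bases of the window farthest from the start. Egf (chr3:129755323-129755572, minus strand) and Tgfa (chr6:86194972-86195037, plus strand) were above the reference, and Nrg4 (chr9:55283655-55283875, minus strand) was below it in all 11 tumours.
Egf: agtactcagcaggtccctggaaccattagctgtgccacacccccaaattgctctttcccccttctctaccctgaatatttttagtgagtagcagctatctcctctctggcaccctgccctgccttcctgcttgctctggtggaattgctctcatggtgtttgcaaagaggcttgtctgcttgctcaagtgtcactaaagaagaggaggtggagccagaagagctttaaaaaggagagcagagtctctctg
Tgfa: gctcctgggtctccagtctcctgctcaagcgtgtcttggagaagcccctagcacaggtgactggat
Nrg4: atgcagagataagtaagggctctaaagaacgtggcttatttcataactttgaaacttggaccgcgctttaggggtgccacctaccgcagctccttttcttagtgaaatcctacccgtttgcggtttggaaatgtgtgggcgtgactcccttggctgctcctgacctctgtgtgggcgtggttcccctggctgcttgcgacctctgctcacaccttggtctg
Capitals would mark an AP-1 site (TGANTCA), a cyclic AMP response element (TGACGTCA), a GC box (GGGCGG) or a TATA box (TATAAA) on either strand, and the printed bases hold none. Of all 32851 promoter windows of 300 bases, 7.81%, 1.79%, 35.7% and 13.6% held these motifs. Egf has another annotated start, whose window also held none. The full Tgfa window held 2 GC boxes, both inside the annotated span of the gene, and the full Egf and Nrg4 windows held none of the 4 motifs. No match says only that these letters are absent from the window.

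Epgn encodes epigen, an EGFR ligand of skin and other epithelia. Its single feature read 0.02, -0.56, -0.47, -1.17 and -0.07 in DMBA 1 to 5, with a mean of -0.45 ± 0.48 (95% confidence interval from -0.89 to -0.01, adjusted p = 0.0762, not called). In untreated 1 to 6 it read -0.59, -1.14, -0.11, 0.12, -0.81 and -1.48. Tumours 6 and 2 were the lowest, and tumour 4 alone was above the reference. The mean of -0.67 ± 0.61 (n = 6) was called lower (limma adjusted p = 0.0172), but not without untreated 2 (-0.57, adjusted p = 0.0518). Epidermal genes, expressed in the skin of the reference, were lower in 9 of 9 cases in each group, beside 31.7% and 32.1% of all genes. Their medians were -3.17 and -3.86, and their part in the Epgn value was not tested.

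Hbegf encodes heparin-binding EGF-like growth factor, a ligand of EGFR and ERBB4 made by macrophages, vessel wall and epithelia. In DMBA 1 to 5 its feature read -1.45, -0.82, -0.84, -1.21 and -1.28. All 5 tumours were below the reference, at a mean of -1.12 ± 0.28 (n = 5), or 2.17-fold lower (limma adjusted p = 0.000332). With Nrg4 it formed the members called lower by at least 2-fold, as were 18.8% of all genes in that table. Its untreated values, in tumours 1 to 6, were -1.68, -0.57, -1.28, -0.34, -0.69 and 0.18. Untreated 1 was the lowest for Hbegf, and untreated 6, lowest for Egf, was the only tumour above the reference. The mean of -0.73 ± 0.66 (n = 6) was called lower (adjusted p = 0.016). Macrophage genes stood near the reference in both groups, with medians of -0.01 (2 of 8 higher, 1 lower) and 0.30 (4 of 9 higher, 2 lower), and endothelial genes were below it, with medians of -0.97 (10 of 10 lower) and -1.23 (9 of 10 lower). Over all genes the shares were 26.1% higher and 31.7% lower, then 28.8% and 32.1%. The part of the macrophage and endothelial genes in the Hbegf result was not tested.

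Btc encodes betacellulin, which binds EGFR and ERBB4. As a gene it was not called in either group, at 0.12 ± 0.31 (n = 5, interval from -0.21 to 0.45, limma adjusted p = 0.498) and 0.09 ± 0.31 (n = 6, interval from -0.19 to 0.36, adjusted p = 0.558). In the DMBA table this mean joined 2 features of the same transcript, NM_007568, that read on opposite sides of the reference. The first read 0.42, 0.20, 1.05, 1.15 and 0.81 and was called higher (0.73 ± 0.40, adjusted p = 0.0117 over all features). The second read -0.55, -0.58, -0.43, 0.00 and -0.89 and was called lower (-0.49 ± 0.32, adjusted p = 0.0312). In DMBA 1, 2, 3 and 5 the features had opposite signs, and the gap between them reached 1.70 in DMBA 5. The value of 0.00 in DMBA 4 is an exact zero in the deposited table, and no source used here says how such values arose. The direction of Btc in the DMBA-treated tumours therefore depends on the feature.

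Ereg encodes epiregulin, a ligand of EGFR and ERBB4. Its gene means in DMBA 1 to 5 were 1.14, -0.25, -0.20, 0.02 and -0.05, so DMBA 1 stood apart and the mean of 0.13 ± 0.57 (n = 5) was not called (limma adjusted p = 0.63). The distance came from 1 of 2 features. That of the transcript NM_007950 read 2.17 in DMBA 1 and between -1.02 and -0.06 in the others, whereas the feature of AK019057 read between 0.10 and 0.51 in all 5. In untreated 1 to 6 the gene means were 0.26, 0.20, 0.61, 0.11, 0.21 and 0.18. All 6 were just above the reference, and the mean of 0.26 ± 0.18 (1.20-fold) was called higher (adjusted p = 0.0325). The call was lost without untreated 1, 2, 3 or 5, with an adjusted p up to 0.0898. By feature, AK019057 was called (0.39 ± 0.19, adjusted p = 0.00651) and NM_007950 was not (0.13 ± 0.36, adjusted p = 0.429).

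Epgn, Ereg, Areg and Btc lie between Mthfd2l and Parm1 on mouse chromosome 5 in that order, with no other protein-coding gene among them in the gene table of GRCm38.p6. Levels of the 3 measured neighbours did not run together in sign. In untreated tumours Ereg was called higher, Epgn lower and Btc in neither direction, and in DMBA-treated tumours none of the 3 was called, with unadjusted limma p-values of 0.561, 0.047 and 0.422, so 1 of them was under 0.05.

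Among the neuregulins of the list, Nrg4, which encodes a ligand of ERBB4 that brown fat secretes, was the one called in both groups. Its feature read -1.25, -0.83, -1.81, -1.25 and -1.22 in DMBA 1 to 5, a mean of -1.27 ± 0.35 (n = 5, 2.41-fold lower, limma adjusted p = 0.00034). The untreated tumours, 1 to 6, read -0.74, -0.94, -0.74, -0.78, -0.64 and -0.88, a mean of -0.79 ± 0.10 (n = 6, 1.73-fold lower, adjusted p = 2.55e-05). No member was called lower by at least 2-fold in the untreated table, where 15.6% of all genes were, and Nrg4 had the lowest mean. It was below the reference in all 11 tumours, and 2.9% of genes varied less between tumours in the untreated table, against 56.1% in the DMBA table. Adipocyte genes, which the reference holds in its fat, were lower still, with medians of -4.08 and -3.71. In each group 8 of 9 were lower, beside 31.7% and 32.1% of all genes, and their part in the Nrg4 value was not tested.

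Nrg1 encodes neuregulin 1, a ligand of ERBB3 and ERBB4 that exists in many isoforms from several promoters. Its gene means were -0.99, -0.71, -0.89, -0.27 and -0.48 in DMBA 1 to 5. All 5 were below the reference, and the mean of -0.67 ± 0.30 (n = 5, 1.59-fold lower) was called (limma adjusted p = 0.00475). In untreated 1 to 6 they were 0.07, -0.29, -0.20, 1.16, -0.39 and 0.04. Untreated 4 was high and the others lay within 0.39 of the reference, with a mean of 0.07 ± 0.57 (interval from -0.36 to 0.49, adjusted p = 0.778, not called).

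The features of Nrg1 disagreed in the DMBA-treated tumours. Both features of the transcript NM_178591 were called lower, at -0.87 ± 0.36 (adjusted p = 0.0038 over features) and -1.45 ± 0.91 (adjusted p = 0.0103), and each was lowest in DMBA 2, at -1.44 and -2.83. The feature of AK048708 (-0.16 ± 0.44, adjusted p = 0.514) and those of AK141037 (-0.03 ± 0.17 and -0.82 ± 1.24, adjusted p = 0.854 and 0.168) were not called. Within a single tumour the 5 features spanned up to 3.19 on the log2 scale. No source used here says which isoforms these features read.

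Nrg2 encodes neuregulin 2, a ligand of ERBB3 and ERBB4 best known from brain. Its single feature read 5.25, 4.62, 0.25, -4.56 and -4.09 in DMBA 1 to 5. DMBA 1 and 2 were far above the reference, DMBA 4 and 5 far below it, and the mean of 0.29 ± 4.64 (interval from -3.51 to 4.10) was not called (limma adjusted p = 0.891). Only 4 of 45220 features in the table, this one included, had a range over the 5 tumours as wide as this. Tumours DMBA 3 and DMBA 4, whose titles share a number, differed by 4.81 on the log2 scale here. Nrg3, the neuregulin outside the list, whose product binds ERBB4, was called lower in both groups, at -2.0 ± 0.72 (n = 5, adjusted p = 0.000626) and -0.76 ± 0.33 (n = 6, adjusted p = 0.000627). The DMBA value joins 2 features that lay up to 4.09 apart within a tumour. AK014399 was called lower (-2.94 ± 0.83, adjusted p = 0.000263 over features), and NM_008734, the accession of the untreated feature, was not called (-1.05 ± 1.29, adjusted p = 0.101). Neuronal genes of the reference were lower in 9 of 10 and 8 of 10 cases, beside 31.7% and 32.1% of all genes. Their medians were -2.51 and -3.93.

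**Figure D2:**
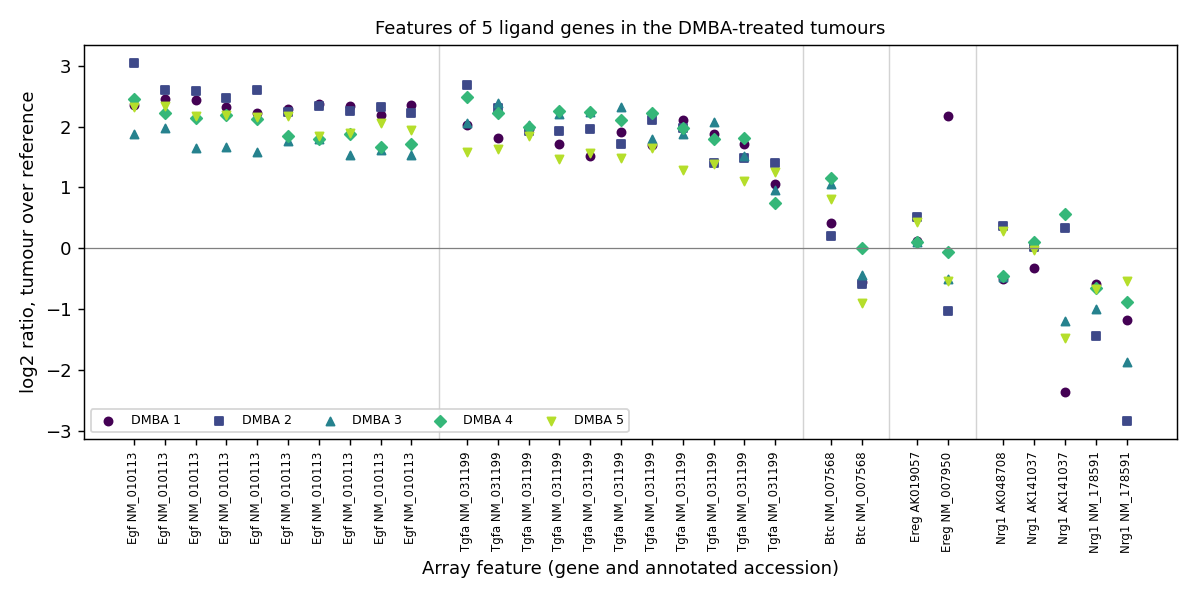
Log2 ratio of tumour over reference (vertical axis) for each array feature of Egf, Tgfa, Btc, Ereg and Nrg1 (horizontal axis, with the annotated accession), with a symbol for each of the 5 DMBA-treated tumours. The 10 Egf features read alike, the 2 Btc features lie on opposite sides of 0, and the Nrg1 features differ by up to 3.19 within a tumour.

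Counted by feature, 27 of 34 member features were called in the DMBA-treated tumours, 22 higher and 5 lower, beside 50.5% of all features (23.0% higher and 27.5% lower). All features of Egf and Tgfa, 21 of the 34, were among the higher ones. Features of 1 gene read the same RNA samples and are not independent, so this count weighs those genes many times. Without these genes 6 of 13 were called, 1 higher and 5 lower. In the untreated tumours 6 of 11 were called, 3 higher and 3 lower, beside 56.9% of all features (26.8% higher and 30.1% lower).

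The question whether DMBA changes the ligands could not be tested. Each group lies in a table of its own, from a different array platform with different features, so that group and platform cannot be told apart. Whether both tables were normalized alike is not stated in the sources used here. The groups were set side by side instead. By gene means, values of Tgfa did not overlap between the groups and the means of 1.82 and 0.52 differed by 1.29. It was the only member of 8 to stand apart in this way, as did 8.34% of all 16351 shared genes, with DMBA higher for 3.27% and lower for 5.06%. Without a minimum on the difference, 18.2% of genes did not overlap. The other 7 members overlapped, with differences (DMBA minus untreated) from -0.73 for Nrg1 to 0.22 for Epgn. The difference for Egf was 0.17.

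Matched by annotated accession, another member stood apart. The shared Tgfa transcript read 1.82 ± 0.21 (DMBA, range from 1.48 to 1.99) and 0.84 ± 0.84 (untreated, -0.65 to 1.65), which overlap and differ by 0.98. For the Nrg1 transcript NM_178591 the values were -1.16 ± 0.63 (range from -2.13 to -0.59) and 0.15 ± 0.36 (-0.22 to 0.83). These did not overlap and differed by -1.31, while the other shared Nrg1 accession, AK048708, read -0.16 ± 0.44 and -0.02 ± 0.82. Of 10 member accessions in both tables, only NM_178591 of Nrg1 stood apart, beside 7.39% of all 16411 shared accessions, and 16.6% did not overlap. Matching by accession was chosen after seeing the data.

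**Figure D3:**
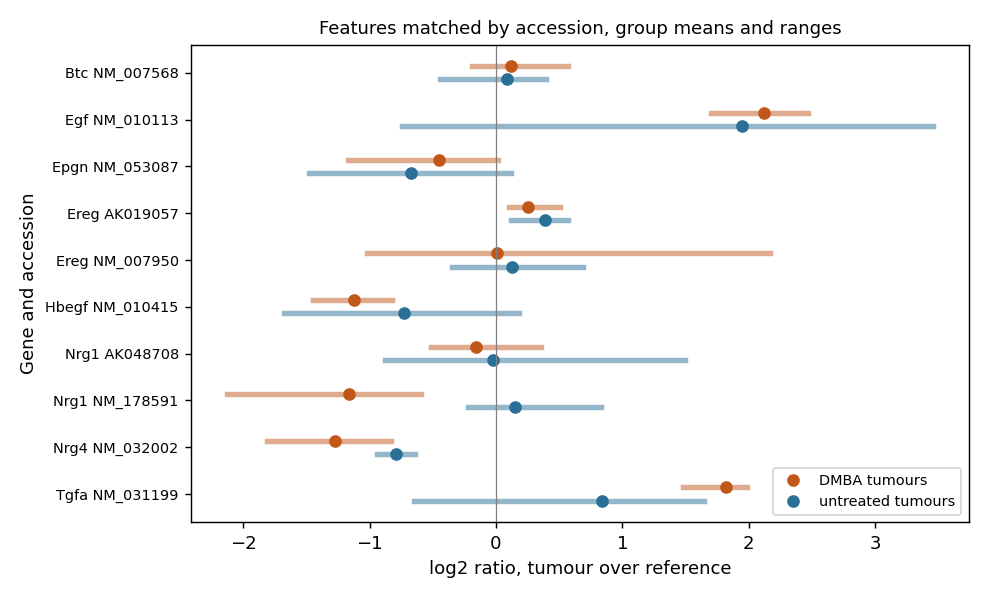
Mean (point) and range over tumours (bar) of the log2 ratio of tumour over reference (horizontal axis) for each member accession found in both groups (vertical axis), for 5 DMBA-treated (orange) and 6 untreated (blue) tumours. The bars of Nrg1 NM_178591 do not overlap, and those of the other 9 accessions do.

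Within the untreated tumours the members were also compared with each other. Over 28 pairs of genes and 6 tumours, exact permutation tests (two-sided) gave 4 pairs with an unadjusted p under 0.05 by Pearson's r and 5 by Spearman's rho, and 0 passed after Benjamini-Hochberg adjustment by either. With 6 tumours a single pair could not pass by rho even if perfectly ranked, so the lack of calls does not show that the members are unrelated. Of the 4 pairs by Pearson's r, Tgfa and Hbegf had opposite trends (r = -0.93, exact permutation p = 0.00556, adjusted p = 0.0778; rho = -0.94, p = 0.0167, adjusted p = 0.156). Without untreated 6 and 3, the tumours farthest from the median of Tgfa, r was -0.91. Egf and Tgfa had r = 0.89 (exact permutation p = 0.0222, adjusted p = 0.207) and rho = 0.71 (p = 0.136, adjusted p = 0.476). Without untreated 6 and 2, the tumours farthest from the median of Egf, r was 0.40. Leaving tumours out in this way narrows the range and keeps few tumours, so for none of the 4 pairs can it show what the relation rests on. Btc and Nrg1 also had opposite trends (r = -0.92, exact permutation p = 0.00556, adjusted p = 0.0778, rho = -0.89, p = 0.0333, adjusted p = 0.186), with r = -0.89 without untreated 4 and 6. Egf and Nrg4 had r = 0.82 (exact permutation p = 0.0403, adjusted p = 0.282) and rho = 0.94 (p = 0.0167, adjusted p = 0.156), with r = 0.84 without untreated 6 and 2. Nrg4 ran only from -0.94 to -0.64 over these tumours. By rho alone, Tgfa and Ereg (rho = 0.94, exact permutation p = 0.0167, adjusted p = 0.156) were also under 0.05 before adjustment. So were Ereg and Hbegf (rho = -0.89, exact permutation p = 0.0333, adjusted p = 0.186). With 5 tumours, the DMBA group was too small for such a comparison.

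Of the receptors of these ligands, 4 of 4 were called higher in the DMBA-treated tumours (median 0.96), beside 26.1% of all genes, and 2 of 4 in the untreated tumours (median 0.94), beside 28.8%. The receptor list itself was not tested. Erbb2 itself was at 1.52 ± 0.17 (n = 5) and 2.74 ± 1.03 (n = 6), and whether its features read the rat transgene is not known. Egfr, the receptor of Egf and Tgfa, was at 0.85 ± 0.30 (n = 5, limma adjusted p = 0.00152) and 1.62 ± 0.56 (n = 6, adjusted p = 5.75e-05). Erbb3 and Erbb4, the receptors of the Nrg1 and Nrg2 products, were at 1.06 ± 0.52 and 0.56 ± 0.26 in DMBA-treated tumours (limma adjusted p = 0.00344 and 0.00707). In untreated tumours they were at 0.27 ± 0.78 and 0.05 ± 0.22 and were not called (adjusted p = 0.376 and 0.691). Whether the groups differ in these receptors was not tested, for the reason given above.

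Of the genes of ligand shedding and trafficking, 5 of 15 were called higher and 6 lower in DMBA-treated tumours (median 0.20), where 26.1% of all genes were higher and 31.7% lower. In untreated tumours 6 of 14 were higher and 4 lower (median 0.07), where 28.8% of all genes were higher and 32.1% lower. The shedding list itself was not tested. Rhbdf2, whose product iRhom2 brings the sheddase ADAM17 to the cell surface, led both groups at 2.09 ± 0.14 (n = 5, limma adjusted p = 4.37e-06) and 1.34 ± 0.17 (n = 6, adjusted p = 1.35e-06). Adam17, the main sheddase of Tgfa and Hbegf products, was at 0.85 ± 0.42 and 0.37 ± 0.25 (adjusted p = 0.00437 and 0.014), and Adam10, which cuts the precursors of Egf and Btc, at 0.88 ± 0.11 and 0.38 ± 0.24 (adjusted p = 0.000235 and 0.0109). Rhbdf1, for iRhom1, was at 0.70 ± 0.30 and 1.17 ± 0.40 (adjusted p = 0.00376 and 9.25e-05). Timp3, an inhibitor of ADAM17, was the lowest gene of the list, at -2.54 ± 0.40 and -2.31 ± 0.50 (adjusted p = 1.77e-05 and 2.52e-06). The proprotein convertase Pcsk5 followed, at -1.93 ± 0.59 and -1.46 ± 0.41 (adjusted p = 0.000313 and 2.07e-05).

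Of the genes that brake the receptors, 6 of 13 were called higher and 2 lower in DMBA-treated tumours (median 0.36), and 7 of 13 higher and 3 lower in untreated tumours (median 0.29). Over all genes the shares were 26.1% higher and 31.7% lower, then 28.8% and 32.1%, and the list itself was not tested. Cblc, a ubiquitin ligase of epithelial cells that sends EGFR to degradation, was at 2.13 ± 0.18 (n = 5, limma adjusted p = 5.42e-06) and 1.46 ± 0.42 (n = 6, adjusted p = 2.4e-05). Socs5, a suppressor of EGFR signals, was at 2.14 ± 0.48 and 0.42 ± 0.44 (adjusted p = 7.93e-05 and 0.0402). The phosphatase gene Ptpn2 was at 1.16 ± 0.47 and 1.14 ± 0.24 (adjusted p = 0.00144 and 1.24e-05). Errfi1, which encodes an inhibitor of ERBB kinases that their own signals induce, was at 1.21 ± 0.47 and 0.58 ± 0.21 (adjusted p = 0.00126 and 0.000745). At the low end were Lrig3, at -0.85 ± 0.62 and -1.10 ± 0.59 (adjusted p = 0.0172 and 0.000943), and Cblb, at -0.41 ± 0.31 and -0.74 ± 0.35 (adjusted p = 0.037 and 0.000852).

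Among adaptor genes, Pik3r1 and Nck1 had the highest means in both groups. Over the list 5 of 13 were higher and 4 lower in DMBA-treated tumours (median 0.09), and 3 higher and 1 lower in untreated tumours (median 0.15), beside 26.1% of all genes higher and 31.7% lower, then 28.8% and 32.1%. The list itself was not tested. Pik3r1 was at 1.98 ± 0.39 (n = 5, limma adjusted p = 5.72e-05) and 2.09 ± 0.27 (n = 6, adjusted p = 2.28e-07). Nck1 was at 1.56 ± 0.20 and 1.75 ± 0.59 (adjusted p = 3.02e-05 and 4.69e-05). Grb14, an adaptor that inhibits the insulin receptor, was lower at -0.84 ± 0.14 and -1.06 ± 0.33 (adjusted p = 0.000384 and 7.3e-05) in DMBA-treated and untreated tumours. Sos1, an activator of RAS, was called lower in DMBA-treated tumours, at -0.63 ± 0.08 (adjusted p = 0.000988), and was at 0.35 ± 0.77 in untreated tumours, where it was not called (adjusted p = 0.241).

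**Figure D4:**
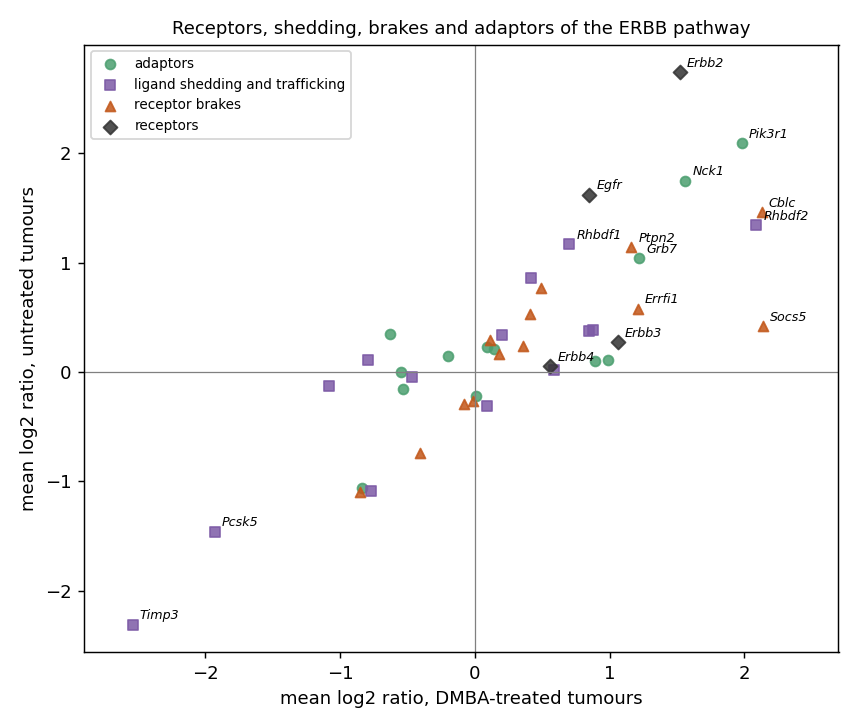
Mean log2 ratio of tumour over reference in DMBA-treated (horizontal axis, n = 5) and untreated tumours (vertical axis, n = 6) for genes of the ERBB pathway, with symbols for receptors, ligand shedding and trafficking, receptor brakes and adaptors. Rhbdf2, Cblc, Pik3r1 and Erbb2 lie high in both groups and Timp3 and Pcsk5 low. Since the groups were read on different array platforms, the distance from the diagonal is no test.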

How the data were processed

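The deposited values are log2 ratios, 1 column for each tumour, which the authors made from 2-colour arrays with a Cy3 reference channel, per the labels. The log base, background correction, normalization and filters are not given in the sources used here. Base 2 was taken from the range of the values (-10.70 to 8.37). Array medians lay between -0.013 and 0.008, and no value was missing. No signals were used, so the number of arrays limits the precision.

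Features were named through the platform annotation, by Entrez identifier in a gene table of GRCm38.p6. A single symbol was listed for 33653 and 18658 features (DMBA and untreated), several for 56 and 30 and none for 11511 and 3887, and 33517 and 18445 were matched; unmatched symbols were kept. The mean over its features gave a gene's value per array. With limma 3.58.1 and R 4.3.3, lmFit and eBayes tested the mean of each group against 0, two-sided, over all genes or all features of its table, with Benjamini-Hochberg adjustment. The code was tested on simulated data. Alternatives covered scaling, the choice of features, the threshold, exact zeros, the spread model and each tumour left out. Named were all members, the 4 receptors, Nrg3, the genes beside the chromosome 5 cluster and, in the other pathway lists, the 2 called genes at each end of each group, with Adam17, Adam10 and Errfi1. From the marker lists, Esr1, Pgr, Aqp2 and Aqp5 were named as called higher. The members and lists were chosen with earlier results of these data known. Of the series, 11 samples were analysed here.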

Additional observations from a re-analysis of the deposited data

Results flagged for a closer look

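Among 53 sets of values, by gene or by feature, 6 held a tumour far from the others of its group by Dixon's criterion. For a single set chance gives about 1 in 20. Gene means and features of the same gene are not independent, so the count cannot be set against that share. In the DMBA-treated tumours these were Ereg in DMBA 1 (gene mean 1.14), a Tgfa feature in DMBA 5 (1.28, the other 4 tumours between 1.87 and 2.10) and an Nrg1 feature of AK141037 in DMBA 1 (-0.33). In the untreated tumours they were Ereg in untreated 3 (gene mean 0.61) and Nrg1 in untreated 4, both by gene mean (1.16) and by the feature of NM_178591 (0.83).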

How the results depend on the processing

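Means are limma's, and alternatives changed 1 choice at a time. No paired analysis was possible because each group was compared with the reference in its own table and tumour numbers only name samples. Tested against a 1.5-fold ratio, 4 members stayed called in DMBA-treated tumours (Egf, Tgfa, Hbegf and Nrg4) and 1, Egf, in untreated tumours. Of the untreated features, 0 of 11 passed that test and 2 did at an unadjusted p under 0.05. Side by side, 0 members stood apart with a single feature per gene or with only the features whose accession is in both tables, and by accession it was Nrg1 in place of Tgfa. The sign turned for 3 means that were not called. With 1 tumour left out, Ereg (DMBA) ran from -0.12 to 0.23, Nrg2 from -0.94 to 1.51 and Nrg1 (untreated) from -0.15 to 0.16, and with a single feature per gene the latter was -0.02. With a single feature per gene Btc (DMBA) became a call at 0.73 (adjusted p = 0.00943) and the Nrg1 call (DMBA) ended at -0.16 (adjusted p = 0.496). With the least variable genes left out, the untreated Ereg call ended (adjusted p = 0.0572) and Nrg4 was not tested. Median-centring, quantile normalization, missing zeros and averaging DMBA 3 with DMBA 4 changed no call of a member. The cause of these changes was not tested.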
